A study of Cardamine hirsuta with 12 samples.

Results

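The regions described here are the ChCUC1:V peaks of *Cardamine hirsuta* for which no untagged library listed a peak. They were found by chromatin immunoprecipitation and sequencing (ChIP-seq), which recovers the DNA that lies close to a chosen protein. Members were chosen by a rule on the deposited peak lists. A member is a reproducible ChCUC1:V peak on Chr1 to Chr8 that shared no base with a reproducible Ox peak, overlapped by 1 bp or more a peak of every one of the 3 ChCUC1:V libraries, and shared no base with any peak of the 3 Ox libraries. Of the 13605 reproducible ChCUC1:V peaks on chromosomes, 5661 (41.6%) lay outside every reproducible Ox peak and are called tagged-only below. The rule was met by 460 of these 5661 peaks (8.13%). The complete list holds 15299 peaks, and 21 further peaks on unplaced scaffolds met the same conditions and were not counted as members. Presence in the ChCUC1:V lists and absence from the Ox lists therefore define the regions and are not findings about them.

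CUP-SHAPED COTYLEDON 1 (CUC1) is a transcription factor of the plant NAC family that marks the boundaries between organs as they form. In *C. hirsuta*, whose leaves are divided into leaflets, ChCUC1 acts at the leaf margin where leaflets arise. A transcription factor is expected to occupy short stretches of DNA near the genes it controls, and a ChIP-seq peak marks a stretch where more DNA was recovered than in the control DNA. DNA also sticks to antibodies without the protein of interest, so peaks from plants without the tag show what is recovered in its absence.

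The ChCUC1:V plants were of the Oxford (Ox) strain and held a transgene in which the promoter of ChCUC1 drives ChCUC1 joined to Venus, a relative of GFP. The plants set against them were untagged Ox wild type, and all IPs used the GFP antibody ab290. Above-ground seedling tissue without mature leaves was taken 14 days after germination from plants in short days, with about 20 g per replicate fixed for 20 min at 4 °C in formaldehyde at 1%. The 12 libraries form 4 groups of 3, with IP and input DNA of each genotype, and a peak list was used for each of the 6 IP libraries. Each IP library was called at a relaxed p of 0.01 against pooled controls. Whether the replicates came from plants grown separately is not stated in the labels, so a p-value across libraries measures only the spread between these samples.

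The libraries were not alike, which bears on every value taken from them. The ChCUC1:V libraries listed 48631, 25083 and 21353 peaks in replicates 1, 2 and 3, and the Ox libraries listed 30996, 38180 and 41490. ChCUC1:V replicate 1 stood apart from replicates 2 and 3, with a smallest peak of 160 bp against 410 and 525 bp. The names of the deposited lists give run 785 for ChCUC1:V replicates 1 and 2 and for Ox replicates 2 and 3, run 787 for ChCUC1:V replicate 3 and run 786 for Ox replicate 1. Fold means recovered DNA in the IP over pooled control at the peak summit, and its scale differed between libraries, so folds were not compared between ChCUC1:V and Ox.

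The first question was whether a choice of this kind holds in libraries that had no part in it. All ChCUC1:V and Ox peaks of 2 libraries of each genotype were merged into regions, and regions with a peak in both kept ChCUC1:V libraries and in neither kept Ox library were chosen. The chosen regions were then looked up in the ChCUC1:V library and the Ox library that had been held out, for all 9 pairs of held-out libraries, with 1139 to 2035 chosen regions per pair. Held-out ChCUC1:V replicates 1, 2 and 3 had a peak in 89.5%, 60.2% and 60.4% of the chosen regions, against 22.9%, 18.2% and 26.2% in held-out Ox replicates 1, 2 and 3. The 2 genotypes did not overlap, and the ChCUC1:V share was higher in 9 of 9 pairs. The means were 70.0% ± 16.8 in ChCUC1:V and 22.4% ± 4.04 in Ox (SD, n = 3 each), a difference of 47.6 percentage points with an exact permutation p of 0.1, two-sided, the smallest that 3 against 3 libraries can give. Each value is the mean of 3 sets of regions, and the sets share libraries, so the 6 values are not fully independent.

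Taken over all merged regions, chosen or not, the genotypes were near each other. Pooled over the pairs, 56.6% of all merged regions had a peak in the held-out ChCUC1:V library and 56.4% in the held-out Ox library. Per library, the chosen regions lay 17.3, 9.63 and 10.2 points above that library's share of all regions in ChCUC1:V replicates 1, 2 and 3. In Ox replicates 1, 2 and 3 they lay 34.6, 32.4 and 36.2 points below it. The larger departure from the background was thus in the Ox libraries. With ChCUC1:V and Ox exchanged in the choice, 904 to 2533 regions were chosen per pair, and 34.1% ± 19.4 of them had a peak in the held-out ChCUC1:V library and 52.0% ± 12.2 in the held-out Ox library (exact permutation p = 0.3, two-sided, SD, n = 3 each).

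The lookup was repeated on the libraries of a single run. Within run 785, with 2 libraries of each genotype and the regions chosen on the 1 remaining library of each, the mean share was 58.0% in ChCUC1:V and 36.0% in Ox, a difference of 22.0 points. The genotypes then overlapped, since the lower ChCUC1:V library had 39.4% and the higher Ox library 48.6%. The exact permutation p was 0.667, two-sided, in a design that cannot go below 0.333. Runs 786 and 787 each held 1 IP library, so neither gave a value of its own. Over all runs, the difference was 28.9 points without ChCUC1:V replicate 1 and 29.2 points without ChCUC1:V replicate 3, where regions were chosen on a single ChCUC1:V library. The value within run 785 also rests on fewer libraries for the choice, so run and number of libraries cannot be told apart in it.

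**Figure D1:**
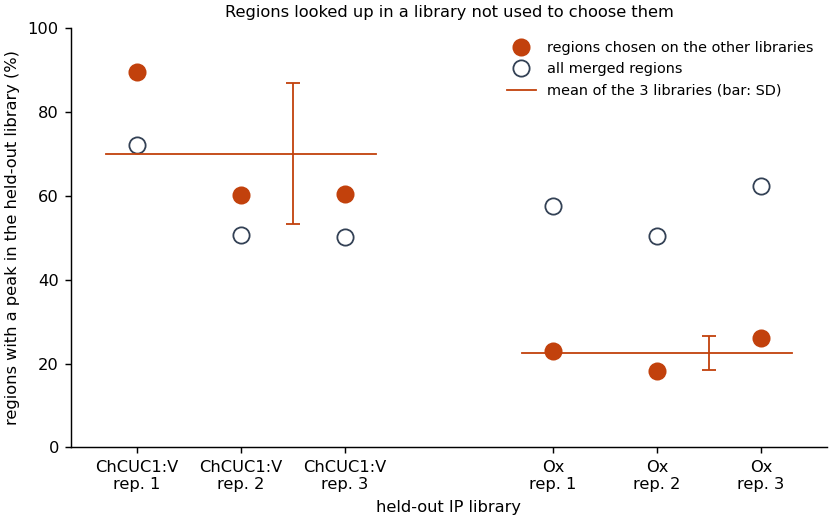
Share of regions (y axis, %) with a peak in each held-out IP library (x axis; ChCUC1:V on the left, Ox on the right); filled points are regions chosen on the remaining libraries, open points all merged regions, and lines and bars the mean and SD of 3 libraries. The chosen regions sit at 60.2% to 89.5% in ChCUC1:V and 18.2% to 26.2% in Ox, with the open points between 50.3% and 72.2%.

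The 460 regions were mostly under 1 kb wide, with folds near 2. Their width ran between 447 and 2255 bp, with a median of 786 bp and a middle range (quartiles) of 640.5 to 999.75 bp. In the reproducible ChCUC1:V list their fold ran between 1.55 and 2.91, with a median of 1.99. The highest scaled IDR score, given to the most reproducible peaks of the list, was held by 138 of the 460 regions (30%). It was held by 35.4% of the 2962 tagged-only peaks with a peak in all 3 Ox libraries. In the 2239 remaining tagged-only peaks the share was 24.8%, so the members lay between the other classes. The rule asks members for a peak in all 3 ChCUC1:V libraries, which 2691 of the 2962 and 1364 of the 2239 had. The part of this condition in the scores was not tested.

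The same regions can be followed through the 3 ChCUC1:V libraries. Their median fold was 2.38, 1.90 and 1.85 in replicates 1, 2 and 3, and the median −log10 p of the peak in them was 6.65, 7.23 and 8.34. Replicate 1 gave the highest fold at 418 regions, while replicate 3 gave the highest −log10 p at 251. The order of libraries thus differed between the measures, and it did so over all chromosome peaks too. Those had median folds of 2.26, 1.97 and 1.86 and median −log10 p of 5.46, 7.53 and 8.02 in replicates 1, 2 and 3. The order is thus not particular to the members. The −log10 p was below the library's own median at 128, 257 and 213 of the 460 regions in replicates 1, 2 and 3. The median member stood at percentile 65.2, 46.3 and 51.8 of the library's peaks. It was thus above the typical peak in replicate 1 and near it in replicates 2 and 3. At 448 regions the weakest of the 3 libraries had a −log10 p of at least 3, and at 306 regions of at least 5. The median of this weakest value was 5.74 in the members. It was 5.64 in the 1364 remaining tagged-only peaks found in all 3 ChCUC1:V libraries. In the 2691 such peaks that all Ox libraries also listed it was 6.09, so the members did not stand out.

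The libraries ranked the regions only loosely alike. Spearman's rho of fold across the 460 regions, which share libraries and are not independent, was 0.31 between replicates 1 and 2, 0.27 between replicates 1 and 3 and 0.38 between replicates 2 and 3. Peaks of replicate 1 covered a median of 66.3% of the region, against 83.6% for replicate 2 and 92.0% for replicate 3. The median width of all chromosome peaks in these libraries had the same order, at 366, 834 and 1048 bp. The summits, the positions of highest recovery, lay a median of 175.5 bp apart over the 3 libraries. They fell within 100 bp of each other at 119 regions and within 200 bp at 264, and were more than 500 bp apart at 31.

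**Figure D2:**
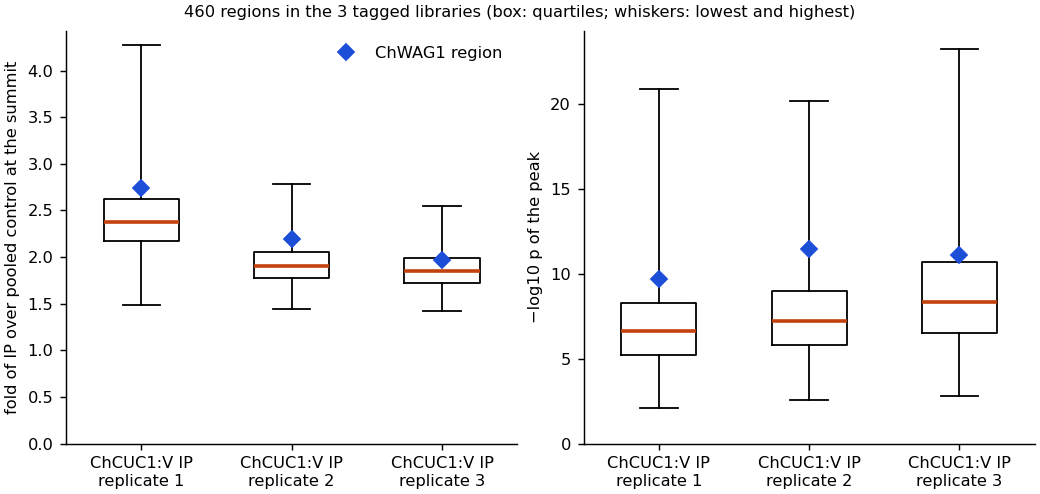
Fold over pooled control at the summit (left) and −log10 p (right) of the 460 regions in ChCUC1:V IP replicates 1 to 3; boxes span the quartiles with the median as a line, whiskers reach the lowest and highest region, and diamonds mark the ChWAG1 region. Median folds were 2.38, 1.90 and 1.85, and the ChWAG1 region was above the median of all 3 libraries on both axes.

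The most enriched region, with a fold of 2.91, lay between genes at Chr4:18283022-18283560, nearest to CARHR131730, whose *Arabidopsis* counterpart AT2G37820 encodes a protein with a C1 domain. Its fold was 4.28, 2.65 and 2.24 in ChCUC1:V replicates 1, 2 and 3, and the 3 summits lay within 30 bp. The second, at Chr4:22738144-22738784, lay by its annotation at the promoter and start site of CARHR143130, with CARHR143140 given as the nearest gene, and had folds of 3.51, 2.50 and 2.48 in the same libraries. It was also the region whose weakest library was strongest, with a −log10 p of 16.4 in replicate 1. Within 10 kb of it, 6597 bp away, lay a further member at Chr4:22745382-22747092 in an exon of MRP4, an ABC transporter.

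The third, at Chr1:23193932-23194677, lay in an intron of CARHR039800, a leucine-rich repeat gene, with folds of 3.74, 2.55 and 2.14. The fourth, at Chr3:8065903-8066802 in an exon of CARHR098010, had 2.84, 2.78 and 2.40, so that replicates 1 and 2 were nearly level. The fifth, at Chr7:20743149-20743801 in an exon of CARHR240690, had 3.15, 2.35 and 2.29. The sixth, at Chr6:22784790-22785487 in an exon of CARHR208290, had 3.50, 2.18 and 2.51, and here replicate 3 exceeded replicate 2. The seventh, at Chr4:22283397-22284494 in an exon of CARHR141970, an uncharacterized gene, had 3.34, 2.51 and 2.40. In all 7 of these regions replicate 1 had the highest fold, as it had at 418 of the 460 members.

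The remaining 3 of the 10 most enriched regions lay at genes with a described product. The eighth, at Chr4:22639070-22639856, lay in the promoter of MYB12, which in *Arabidopsis* activates genes of flavonol synthesis. Its folds were 2.86, 2.50 and 2.19 in ChCUC1:V replicates 1, 2 and 3, with −log10 p of 10.8, 17.0 and 14.8. Another member, at Chr4:22637147-22637873, lay 1196 bp from it. The ninth, at Chr7:21261779-21262935, lay in an exon of the counterpart of AT4G33970, an extensin-like gene whose family encodes cell wall proteins, where the folds were 2.68, 2.53 and 2.39. The tenth, at Chr1:5619755-5620314, lay in an exon of GA4, which encodes a gibberellin 3-beta-dioxygenase, an enzyme that makes active gibberellin. Its summits fell within 12 bp, with folds of 3.45, 1.93 and 2.30. The 5 regions with the highest −log10 p in their weakest library, between 12.8 and 16.4, were all among these 10, and lay at Chr4:18283022-18283560, Chr4:22738144-22738784, Chr1:23193932-23194677, Chr7:20743149-20743801 and Chr4:22283397-22284494.

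Gene names came from the portion of the study's own peak annotation used here, which had an entry for 165 of the 460 regions. Of these, 39 had a gene name, which for some was only the *Arabidopsis* ID repeated. Entries went to members with a high −log10 p in the reproducible list, where the median of the 460 was 19.8. Chr1:25165983-25166930, with 22.2, had an entry, while Chr2:9348978-9349727, with 22.1, had none. Values at named genes therefore describe the stronger members. A region without an entry is named by its position only. Members with an *Arabidopsis* ID but no gene name in the sources used were not sorted into gene groups, so the groups below are incomplete. No count of gene classes was made from this portion. The named members below belong to groups of genes that a boundary factor might be asked about, and being named is no test of the group.

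Of the members with a gene name, one at an auxin-related gene lay at ChWAG1. WAG kinases phosphorylate PIN proteins, the exporters of auxin, and so affect the side of the cell to which auxin is sent. The region, Chr1:25209513-25210759, lay in an exon of CARHR044000 and had a fold of 2.29 in the reproducible list. It was 2.75, 2.20 and 1.97 in ChCUC1:V replicates 1, 2 and 3, with −log10 p of 9.66, 11.5 and 11.1, and the summits were 237 bp apart. The nearest peak of any Ox library was 10233 bp away. The related gene ChWAG2 also had a tagged-only peak, at Chr3:4844893-4846203, but it is no member. Its folds were 2.40, 2.05 and 1.93 in ChCUC1:V replicates 1, 2 and 3, with −log10 p of 7.35, 9.29 and 9.89. Ox replicates 2 and 3 listed peaks there with folds of 2.22 and 2.09 and −log10 p of 3.70 and 5.38, while Ox replicate 1 listed none. The scale of fold differed between libraries, as given above.

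Among meristem genes, a member at Chr4:16533055-16534273 lay between genes with WOX9 as the nearest, a homeobox gene needed for early growth of the embryo and shoot in *Arabidopsis*. Its folds were 2.48, 2.13 and 2.03 in ChCUC1:V replicates 1, 2 and 3, with summits within 121 bp. Among hormone and wall genes, GA4 and the extensin-like gene are given above. A further wall-related member, at Chr6:16959938-16960547 in an exon of the counterpart of AT5G20740, lay at a gene for an inhibitor of invertase or pectin methylesterase, enzymes that act on sucrose or on wall pectin. Its folds were 2.72, 2.32 and 1.86.

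Among receptor-like kinases, a member at Chr3:6164885-6165956 lay in an exon of RLK902. Its folds for replicates 1, 2 and 3 of ChCUC1:V were 2.84, 1.94 and 1.64, and a further member began 565 bp away, the closest pair of the set. A member at Chr4:17675400-17676582 lay in an exon of the counterpart of AT2G36570, a leucine-rich repeat kinase gene, with 2.25, 1.65 and 1.84. The AT2G36570 region was below the median fold of the 460 regions in all 3 libraries, and the RLK902 region in replicate 3 alone.

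Some further named members, at genes outside the gene lists of those groups, were picked after their values were seen. KNU, a zinc finger repressor that ends stem cell activity in *Arabidopsis* flowers, had a member at Chr6:19628385-19628951 with folds of 2.69, 1.93 and 2.13. HAM3, a GRAS family gene of shoot meristems, had a member at Chr8:68408-69853 with 2.13, 2.01 and 1.87, and its summits lay 733 bp apart. IRT1, an iron transporter, had one at Chr7:15413833-15414508 with 2.79, 2.01 and 2.12. CARHR128500 held 2 members 1330 bp apart, Chr4:16719382-16720094 and Chr4:16721425-16722209, the only gene named as nearest to more than 1 member in the annotated portion. At the first of them the folds were 2.41, 2.11 and 2.11, and at the second 2.49, 2.29 and 2.20.

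The least enriched members show how low the list reaches. The lowest, at Chr8:290175-291469, had a fold of 1.55 in the reproducible list, and 1.77, 1.62 and 1.49 in ChCUC1:V replicates 1, 2 and 3. Its −log10 p stood at 3.08, 4.06 and 3.75, against a floor of about 2 for the relaxed lists. The next lowest were Chr4:8007850-8008932, with 1.63, and Chr3:58718-60090, with 1.65. At Chr3:58718-60090, 2 peaks of replicate 1 fell inside, and the summits of the 3 libraries lay 979 bp apart.

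Width varied about 5-fold between the extremes. The widest members were Chr2:19673085-19675339 with 2255 bp, Chr1:6143031-6145185 with 2155 bp and Chr5:97577-99648 with 2072 bp. In the widest, peaks of ChCUC1:V replicates 1, 2 and 3 covered 47.7%, 45.2% and 72.7% of the region, so no library alone spanned it. The narrowest were Chr4:4380179-4380625 with 447 bp, Chr4:256685-257138 with 454 bp and Chr5:19327465-19327932 with 468 bp. Replicate 3, whose smallest peak of 525 bp is wider than any of these, covered 100% of the first 2 and 99.4% of the third.

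Set beside the other tagged-only peaks, the members differed in width more than in enrichment. These are descriptions, since the rule sorted the classes. A wide peak has more bases on which an Ox peak can fall. The rule also asks for a peak in all 3 ChCUC1:V libraries, which 1364 of the 2239 remaining peaks had. The part of either condition in the widths was not tested. The median width was 786 bp in the 460 members, 683 bp in the 2239 remaining peaks and 1308.5 bp in the 2962 peaks with a peak in all 3 Ox libraries. Peaks over 2 kb made up 0.652%, 2.05% and 22.7% of the 3 classes in that order. The median fold was 1.99, 1.96 and 2.03, a narrow span. The share of tagged-only peaks that were members was 13.7% at 600 to 800 bp and 13.8% at 800 to 1000 bp, against 6.95% below 600 bp and 0.414% from 2000 bp. By fold it moved less, between 6.23% and 9.97% over 6 intervals.

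**Figure D3:**
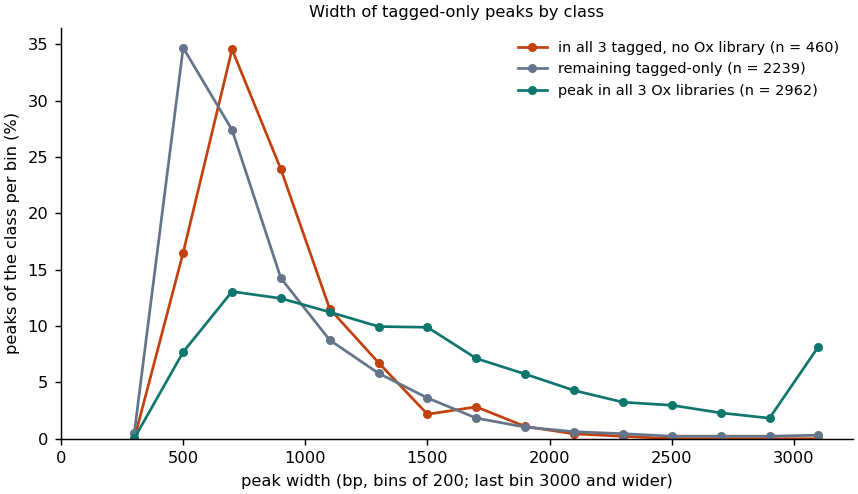
Percent of each class (y axis) per 200 bp interval of peak width (x axis, bp; last interval 3000 bp and wider) for the members, the remaining tagged-only peaks and tagged-only peaks with a peak in all 3 Ox libraries. The members peak at 600 to 800 bp with 34.6% of the class, and 0.652% of them exceed 2 kb, against 22.7% of the peaks in all 3 Ox libraries.

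Summits of the ChCUC1:V libraries lay closer together in the members than in the wider class. The median spread over 3 libraries was 175.5 bp in the members, 193 bp in the 1364 remaining peaks found in all 3 ChCUC1:V libraries and 266 bp in the 2691 such peaks that all Ox libraries also listed. A spread of at most 100 bp was seen in 25.9%, 21.8% and 15.2% of these classes in that order. Width moves with this measure, since summits can lie no farther apart than the peaks reach, and its part was not tested.

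Distance to Ox peaks is described here with no comparison, since the rule requires members to avoid them. The nearest peak of any Ox library lay a median of 5348.5 bp away, with 23 regions within 500 bp of one, 61 within 1000 bp and 308 within 10 kb. The nearest reproducible Ox peak lay farther off, at a median of 59001 bp. The 3 closest members to the edge of the rule were Chr1:11595791-11596690, 8 bp from a peak of Ox replicate 1, Chr3:10966104-10966670, 112 bp from another peak of that library, and Chr5:18532148-18533191, 121 bp from a peak of Ox replicate 3. The 3 most isolated members were Chr5:21342046-21342708, in an exon of PRP3, a proline-rich protein gene, with no Ox peak for 58733 bp, Chr4:19598442-19599433 with 54474 bp and Chr3:3723702-3724364 with 48377 bp. The PRP3 region had a fold of 2.11 in replicate 1, 1.98 in replicate 2 and 2.07 in replicate 3 of ChCUC1:V.

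**Figure D4:**
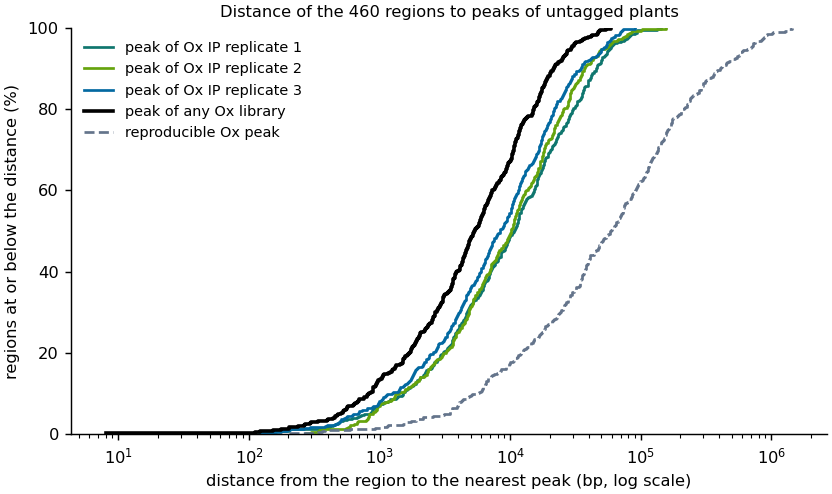
Cumulative percent of the 460 regions (y axis) by distance to the nearest peak of each Ox library, of any Ox library and of the reproducible Ox list (x axis, bp, log scale). The median distance is 5348.5 bp to any Ox library and 59001 bp to the reproducible list.

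Just outside the rule stood 427 tagged-only peaks present in all 3 ChCUC1:V libraries and in exactly 1 Ox library. In 409 of them a single Ox peak was involved, with a median of 333 bp shared. Those missed by the fewest bases were Chr3:23341261-23342249, which shared 28 bp with a peak of Ox replicate 1, Chr4:19981640-19982391, which shared 29 bp with one of Ox replicate 2, and Chr7:19605979-19607204, which shared 33 bp with one of Ox replicate 1. Their folds in the ChCUC1:V list were 1.76, 1.93 and 1.76, and the Ox peaks had −log10 p of 3.92, 4.41 and 3.78. Such Ox peaks had a median −log10 p of 4.20 and a median fold of 1.99 over the 409. Over all chromosome peaks of Ox replicates 1, 2 and 3, the median −log10 p was 6.32, 4.54 and 5.34. A single such peak was enough to leave a region out. The depth of the libraries in reads is unknown.

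Members lay on all 8 chromosomes, with 82 on Chr1, 41 on Chr2, 74 on Chr3, 58 on Chr4, 47 on Chr5, 54 on Chr6 and 52 each on Chr7 and Chr8. Per Mb up to the last peak this ran between 2.03 on Chr2 and 3.14 on Chr3. As a share of each chromosome's tagged-only peaks it ran between 6.44% on Chr2 and 11.5% on Chr1. Along chromosomes, 209 of 370 intervals of 500 kb held at least 1 member, with a median of 1, and the fullest held 8, on Chr4 from 21.5 Mb. In it lay an intron region of EMB2766, a nuclear pore gene, at Chr4:21646042-21647342 with folds of 2.42, 2.12 and 2.01. The median distance to the next member was 81541.5 bp.

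The members lay nearer to chromosome ends than the other tagged-only peaks. Within 5 Mb of an end, which takes in 43.8% of the chromosomes' length, were 275 members (59.8%), against 42.1% of the remaining peaks and 26.2% of those in all 3 Ox libraries. The last Mb alone held 85 members (18.5%), against 8.84% of the remaining peaks. Conversely, the 79 intervals richest in peaks shared by both genotypes, with at least 42 shared peaks each, held 25 members (5.43%), against 23.7% and 44.9% of the other classes. Since a member must avoid all Ox peaks, stretches full of Ox peaks leave less room for one, and position is not independent of the rule.

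**Figure D5:**
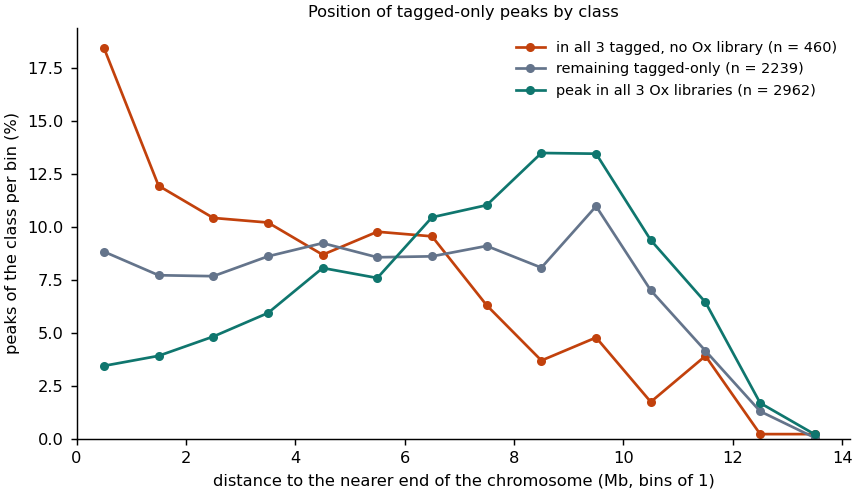
Percent of each class of tagged-only peaks (y axis) per 1 Mb of distance from the nearer end of its chromosome (x axis, Mb). The members are most frequent in the first Mb, with 18.5% of the class against 8.84% of the remaining tagged-only peaks.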

How the data were processed

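Bowtie, MACS2 and bedtools are listed in the submitters' processing notes, with no version. Neither labels nor files used here state a genome build, so positions are given as in the deposited lists, counted from 1. In the deposited narrowPeak lists the fold is a ratio of IP over pooled control, and the authors also gave the −log10 p of each peak. The score deposited by the authors is scaled from the −log10 p in the relaxed lists of single libraries and from the irreproducible discovery rate (IDR) in the reproducible lists, in which 540 stands for an IDR of 0.05. The reproducible lists are labelled only case and control. The case list was taken as ChCUC1:V because the intervals of the study's ChCUC1 peak annotation used here all lay in it. That annotation gave gene and gene part only. Groups came from the sample titles, as the genotype field says Oxford throughout.

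An overlap was 1 shared bp or more. For each region the peak of a library with the summit nearest to that of the region was used. Library shares were compared by exact permutation tests, two-sided, in Python 3.11.15 with SciPy 1.17.1, pandas 2.3.3, numpy 2.4.6 and matplotlib 3.10.9, and the overlap and hold-out code was tested on simulated data. Read counts and thus depth are unknown. Input DNA was not analysed here on its own.

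The members, lists and tests were chosen with earlier results of these data known. Regions named were the 10 of highest fold, the 5 with the strongest weakest library, the 3 lowest, widest, narrowest, nearest to and farthest from an Ox peak, the 3 just outside, and members at genes of the named groups. The members at KNU, HAM3, IRT1 and CARHR128500 were added after their values were seen, and the one at EMB2766 lay in the fullest interval. Alternatives covered overlap, IDR, list length, margins and each library left out.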

Additional observations from a re-analysis of the deposited data

How the results depend on the processing

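The number of regions stayed within 1.5 times of 460 in 12 of 13 alternatives. The exception was a stricter IDR of 0.01, which left 243. With each library cut to its 21353 strongest peaks the number was 645, of which 280 were among the 460, so the identity of the regions depends on list length more than their number does. Leaving out 1 library gave 462 to 632 regions. Median width ran between 727 and 836 bp and median fold between 1.97 and 2.10 over the 13 alternatives, and the summit spread was 178.5 bp with the strongest peak per library. The hold-out difference kept its direction in 11 of 11 alternatives, between 22.0 and 47.0 points. It was 28.9 to 37.3 points with 1 library left out, 38.4 points with lists of equal length and 42.9 points when at least 50% of a region had to be covered. Net of each library's share of all regions, an alternative added after seeing the data, it was 46.7 points. With the replicate number as a block it was 47.0 points (exact sign-flip p = 0.25, the smallest for 3 pairs). Deviations of libraries with equal numbers correlated at −0.02, −0.03 and 0.00 over 39272 regions, and those with unequal numbers between −0.005 and 0.025. Peak calls thus showed no pairing by number. They cannot tell whether replicates of equal number were grown or handled together. Motif content was not run, since no genome sequence of this build was used here. Unknown read depth limits any statement that a region lacks signal in Ox.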
